A study of Homo sapiens with 4 samples.

Results

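The SOX, FOX and T-box genes encode 3 families of sequence-specific transcription factors, and their chromatin was examined in 786-O, a human renal carcinoma cell line, with DEK present or knocked out. DEK is a DNA-binding histone chaperone. The members were the protein-coding genes on chromosomes 1 to 22 whose symbols are SOX, FOX with a letter from A to S, or TBX, each followed by a number, together with TBXT. This gave 73 of 19126 protein-coding genes, with 18 SOX, 42 FOX and 13 T-box genes. Their windows, each the gene span plus 50 kb on either side, held 713 of the 134897 merged peak regions of these chromosomes. Windows of 9 members overlapped (FOXC2 with FOXF1 and FOXL1, FOXD2 with FOXE3, FOXF2 with FOXQ1, and TBX2 with TBX4), and the 24 regions that lay in more than 1 window were counted once. FOXD4 has near-identical copies elsewhere in the genome, so its calls are uncertain.

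Open chromatin was mapped with ATAC-seq, which marks accessible DNA by adapter insertion with a transposase, in 2 DEK KO and 2 WT control libraries. All cells descended from a Cas9-expressing clone made with LentiCas9-Blast virus, so that the controls also carry Cas9. The DEK KO cells had in addition received DEK gRNAs in LentiGuide-Puro virus and were sorted as single cells, whereas the WT control cells were the negative control with a WT genotype. Whether replicates of a genotype are separate clones or cultures is not stated in the labels, so any p-value reflects the variation among these samples alone, and that variation may be technical. The deposited lists held 100037 and 96862 peaks in DEK KO replicates 1 and 2, and 87220 and 88059 peaks in WT control replicates 1 and 2, with median widths of 594 and 550 bp and of 610 and 628 bp in the same order. Read depth is unknown, and peak lists cannot show whether the DEK gene was disrupted. The renal markers PAX8, PAX2, EPAS1 and LHX1 had a peak at the start in every list, and CA9 had none in any. All 3 endothelial and all 3 hepatocyte markers were closed, as were 3 of 4 blood markers, whereas SPI1 and the neuronal genes SNAP25 and SYT1 were open.

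SOX proteins bind the minor groove of DNA through an HMG box, bend it, and set stem cell, neural, cartilage and endothelial programmes. FOX proteins bind through a winged-helix forkhead domain. The FOXA factors among them can engage compacted chromatin, the FOXO factors are held in the cytoplasm by insulin and AKT signals, and FOXM1 drives mitotic genes. T-box factors act in mesoderm, limb, heart and urinary tract development, and many of these developmental genes are kept silent in adult cells by Polycomb proteins over CpG-rich promoters.

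Starts of transcription came from the RefSeq promoter table (GRCh38.p14) for 50 members, and either end of the gene stood in for the start in the other 23. The first 3 promoters printed here are those of the FOXK pair, which have CpG-dense promoters of equal CpG number and different start calls, and of TBXT, which had a peak within 1 kb of another listed start in a single list. The other 3 belong to open members whose start region ranked lower in DEK KO. Each runs 5′ to 3′ from 250 bases before to 50 bases after the start, with CG dinucleotides in capitals.
FOXK2: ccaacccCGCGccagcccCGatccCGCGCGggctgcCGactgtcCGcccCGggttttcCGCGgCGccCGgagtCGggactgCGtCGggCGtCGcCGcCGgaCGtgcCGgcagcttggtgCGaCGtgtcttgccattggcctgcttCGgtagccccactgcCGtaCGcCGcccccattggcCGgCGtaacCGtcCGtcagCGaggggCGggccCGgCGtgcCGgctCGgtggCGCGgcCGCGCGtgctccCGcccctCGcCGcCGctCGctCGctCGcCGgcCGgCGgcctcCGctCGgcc
FOXK1: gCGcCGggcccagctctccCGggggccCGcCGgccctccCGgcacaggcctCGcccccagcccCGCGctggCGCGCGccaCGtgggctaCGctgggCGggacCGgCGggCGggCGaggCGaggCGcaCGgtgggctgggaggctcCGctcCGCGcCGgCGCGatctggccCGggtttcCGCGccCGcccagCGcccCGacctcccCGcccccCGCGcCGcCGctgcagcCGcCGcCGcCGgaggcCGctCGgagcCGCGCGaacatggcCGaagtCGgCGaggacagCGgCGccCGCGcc
TBXT: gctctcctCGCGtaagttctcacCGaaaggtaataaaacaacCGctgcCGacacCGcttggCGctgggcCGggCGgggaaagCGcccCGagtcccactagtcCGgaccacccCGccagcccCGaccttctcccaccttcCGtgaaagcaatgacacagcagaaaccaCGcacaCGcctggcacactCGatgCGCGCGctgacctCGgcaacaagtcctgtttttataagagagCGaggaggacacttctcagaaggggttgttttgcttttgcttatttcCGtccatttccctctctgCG
SOX2: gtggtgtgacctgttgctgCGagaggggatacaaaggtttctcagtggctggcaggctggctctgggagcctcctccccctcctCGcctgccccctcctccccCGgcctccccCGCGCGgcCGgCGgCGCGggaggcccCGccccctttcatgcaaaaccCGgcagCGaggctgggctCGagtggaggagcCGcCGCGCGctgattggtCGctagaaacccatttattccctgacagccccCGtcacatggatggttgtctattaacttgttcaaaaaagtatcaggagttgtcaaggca
SOX13: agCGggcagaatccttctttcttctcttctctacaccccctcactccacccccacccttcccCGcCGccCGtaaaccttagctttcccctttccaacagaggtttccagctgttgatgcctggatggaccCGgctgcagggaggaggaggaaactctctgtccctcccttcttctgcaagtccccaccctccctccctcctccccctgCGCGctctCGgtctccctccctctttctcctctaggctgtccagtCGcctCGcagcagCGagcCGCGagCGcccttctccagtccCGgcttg
TBX6: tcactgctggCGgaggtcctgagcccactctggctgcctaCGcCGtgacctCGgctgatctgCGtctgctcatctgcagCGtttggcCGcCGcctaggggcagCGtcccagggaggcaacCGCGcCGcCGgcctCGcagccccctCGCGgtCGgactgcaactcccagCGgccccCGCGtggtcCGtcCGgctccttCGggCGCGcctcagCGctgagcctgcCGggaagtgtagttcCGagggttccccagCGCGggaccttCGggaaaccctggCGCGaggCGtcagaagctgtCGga
FOXK2 lies on the plus strand (chr17:82519482-82519781, 55 CpG, 79% GC), as do FOXK1 (chr7:4682045-4682344, 55 CpG, 84.3% GC), SOX2 (chr3:181711675-181711974, 20 CpG, 63.3% GC) and SOX13 (chr1:204072865-204073164, 15 CpG, 62.7% GC). TBXT (chr6:166168606-166168905, 25 CpG, 58.3% GC) and TBX6 (chr16:30091875-30092174, 35 CpG, 71.3% GC) lie on the minus strand.

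Of the 73 members, 30 had an open start, defined as a peak within 1 kb of a listed start in all 4 lists, 36 had a closed start with no such peak in any list, and 7 were mixed. Mixed starts made up 9.59% of the members, against 8.43% of all protein-coding genes, open starts 41.1%, against 59.8%, and closed starts 49.3%, against 31.8%. With only the 50 members that have a listed start, a choice made after the values were seen, 44% were open and 52% closed, against 62.6% and 30.0% of the genes in that table. With a distance of 5 kb instead of 1 kb, 23 members were closed (31.5%, against 17.9% of all genes) and 41 open (56.2%, against 71.0%). The number of members with a peak at the start was 33 and 33 in DEK KO replicates 1 and 2, and 33 and 34 in WT control replicates 1 and 2. The number of accessible starts thus differed by at most 1 between any of these libraries. The genes called were not all the same, since the 7 mixed starts were called in different lists.

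**Figure D1:**
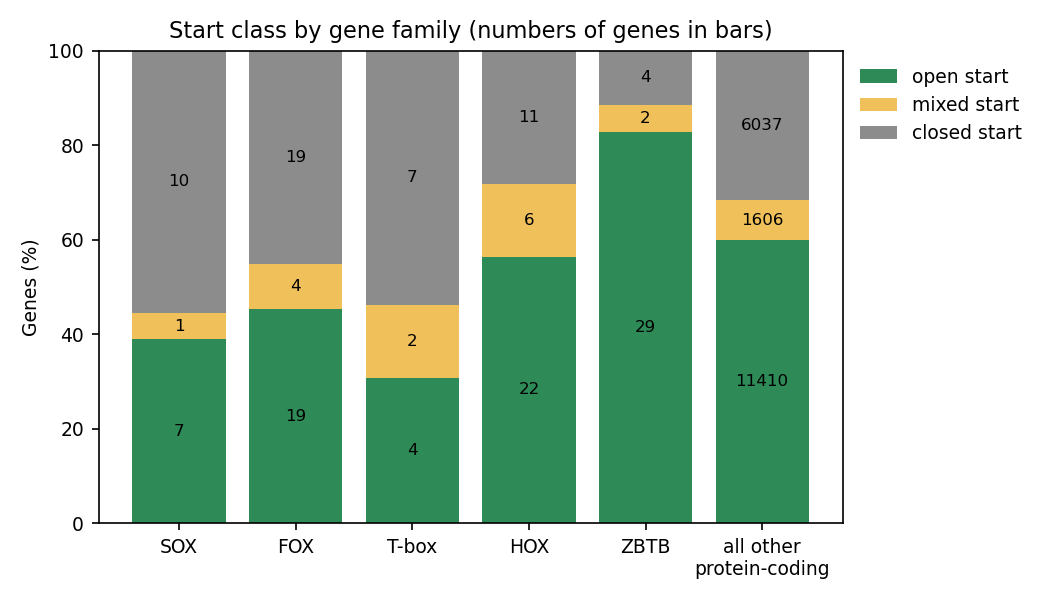
Share of genes (%) with open, mixed and closed starts in the SOX, FOX and T-box families, in HOX and ZBTB genes and in all other protein-coding genes, with gene numbers in the bars. Open starts are 7 of 18 SOX, 19 of 42 FOX and 4 of 13 T-box genes, against 22 of 39 HOX genes, 29 of 35 ZBTB genes and 11410 of the other genes.

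Among SOX genes, the open starts were those of SOX2, a factor of stem and neural progenitor cells, of SOX4 and SOX12 of the SOXC group, of SOX5, SOX6 and SOX13 of the SOXD group, and of SOX9, the factor of cartilage and of injured kidney tubule. The closed ones were SOX1, SOX14 and SOX21 of the neural SOXB group, SOX7, SOX17 and SOX18 of the endothelial and endodermal SOXF group, SOX8 and SOX10 of the SOXE group, SOX11 and the testis factor SOX30. Every SOXD gene was therefore open and every SOXF gene closed in all 4 lists. The open T-box genes were the paralogous repressors TBX2 and TBX3, the somite factor TBX6, and TBX10. TBX1, TBX4, TBX5, TBX18, TBX19, TBX20 and TBX21, which act in the pharynx, limb, heart, ureter mesenchyme, pituitary and T cells among others, were closed.

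The open FOX genes included FOXO1, FOXO3 and FOXO6, the targets of insulin signalling, the repressors FOXP1, FOXP2 and FOXP4, the pioneer factors FOXA1 and FOXA3, the mitotic factor FOXM1, FOXC1, FOXC2, the kidney stroma factor FOXD1, FOXD2, the motile cilia factor FOXJ1, FOXJ2, FOXJ3, FOXN2, FOXN3 and FOXS1. Closed FOX genes included FOXB1, FOXB2, FOXD3, FOXD4, FOXE1, FOXF1, FOXF2, FOXH1, FOXI1, FOXI2, FOXI3, FOXK1, FOXL2, FOXL3, FOXN1, FOXN4, FOXQ1 and FOXR1. FOXI1, the factor of intercalated cells of the collecting duct, and its relatives FOXI2 and FOXI3 were all closed. All 4 listed starts of FOXO3 had a peak in every list. FOXP1 had a peak in every list at 3 of its 6 listed starts and in no list at the other 3. SOX6 had peaks at only the outermost of its 5 listed starts. The start regions of FOXA3, SOX6, FOXA1 and FOXM1 also lay within 1 kb of a start of another gene (SYMPK, C11orf58, TTC6 and RHNO1), so a peak there cannot be given to the member alone.

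Promoter windows of closed members held more CpG than those of other closed genes. The ratio of observed to expected CpG had a median of 0.77 in the 26 closed members with a window, against 0.34 in 4506 other closed genes, and 20 of the 26 (76.9%) reached 0.6, against 32.3%. In the 22 open members the median was 0.87 and 18 (81.8%) reached 0.6, against 0.84 and 84.4% in other open genes. GC content had a median of 66.3% in closed members and 55.7% in other closed genes. Closed members thus had CpG-rich windows of the kind seen at most open starts. These are descriptions of sequence in 26 and 22 windows, without a test.

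**Figure D2:**
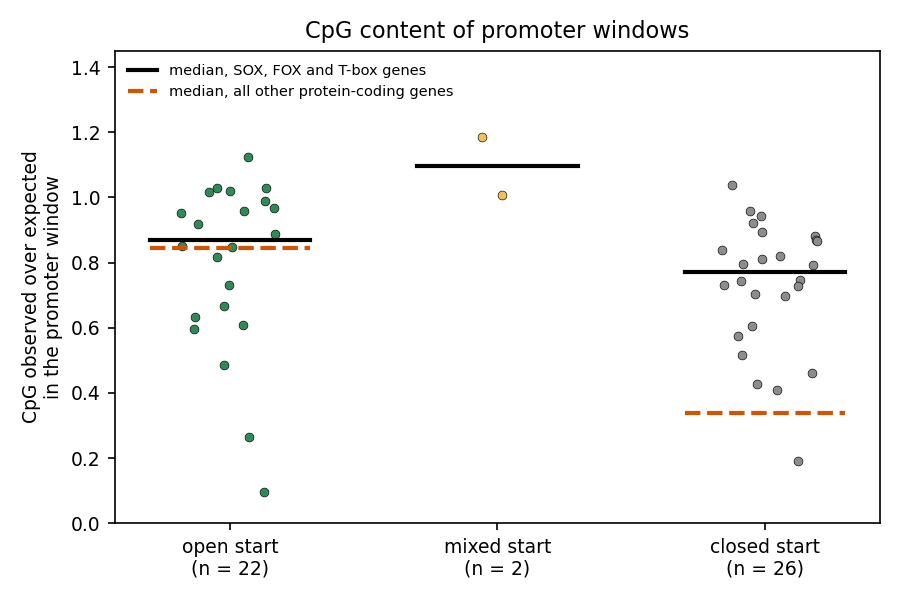
Observed over expected CpG in the RefSeq promoter window of each of the 50 members with a listed start (points), by start class, with the members' median (black) and the median of all other protein-coding genes of that class (dashed orange, not drawn for mixed starts). Closed members have a median of 0.77, above the 0.34 of other closed genes.

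The starts of the FOXK pair, factors that repress autophagy genes and support glycolysis, were called differently. The FOXK1 and FOXK2 windows printed above hold 55 CpG each, yet the FOXK1 start had no peak within 1 kb in any list. FOXK2 (start chr17:82519732) had a KO-only region, called in both DEK KO lists and neither WT control list, that ended 21 bp before the start (chr17:82519047-82519711). Its folds over background were 4.51 and 6.26 in DEK KO replicates 1 and 2, at percentiles 49.2 and 65.5 of those lists, and no peak was listed there in either WT control replicate. FOXK2 was the only one of the 73 members whose start was called in both DEK KO lists and neither control list. Counted as regions, 2 of the 52 at member starts were KO-only, those at FOXK2 and FOXC1. At the starts of other protein-coding genes 241 of 14185 regions were KO-only. Genes with such a start call were not counted over all genes, so nothing particular to the members is read from FOXK2. On chromosome 17, 80.3% of one-genotype regions were KO-only, against 70.9% over chromosomes 1 to 22, and the part of this chromosome-wide tilt in the FOXK2 call was not tested.

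The other 6 mixed starts were called in other combinations of lists. TBXT, or brachyury, the factor of notochord and chordoma, had a 266-bp peak in WT control replicate 1 alone (chr6:166166634-166166899), within 1 kb of the inner of its listed starts. TBX15, a mesenchymal factor of limb and fat, had a WT-only region by the gene end of lower coordinate (chr1:118881897-118882349) with a fold of 5.07 in WT control replicate 1, 3.54 in replicate 2 and no DEK KO peak. FOXE3, a lens factor, had a peak at a gene end in DEK KO replicate 1 and WT control replicate 2. SOX15 had peaks at its gene ends in DEK KO replicate 2 and both controls. FOXA2 and FOXL1 each had a region called in all 4 lists that reached to within 1 kb of a gene end in some lists only, DEK KO replicate 1 for FOXA2 and replicate 2 of both DEK KO and WT control for FOXL1, so their class rests on where peak edges fell. At TBX15, FOXE3, FOXA2 and FOXL1 the other gene end had no peak in any list. No strand was listed for these genes, so a called gene end may be the 3′ end.

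Peak strength was compared by rank. Each region called in all 4 lists received, in each library, its percentile by −log10 p among the 61035 such regions, so that unequal list lengths do not shift it. A region was called higher or lower where both DEK KO percentiles lay above or below both WT control percentiles. With 2 libraries against 2, such a separation has an exact permutation p of 0.333 (two-sided), the smallest the 6 assignments allow, so no difference can pass this test at the usual threshold.

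The start regions of the 30 open members were ranked low for open starts. Their median percentiles were 40.3 and 54.0 in DEK KO replicates 1 and 2 and 55.7 and 48.7 in WT control replicates 1 and 2, against 73.2 and 76.0, and 75.1 and 77.2, in the 11386 other genes. Among these 30 regions, 2 ranked higher and 9 lower in DEK KO, where the background over all 11416 open starts was 15.7% higher and 23% lower. The difference of DEK KO minus WT control was negative at 20 of 30 (66.7%), against 57.3% of other genes, with medians of −3.04 and −0.91 percentile points. Ranked by fold instead, 4 were higher and 7 lower. The counts were 10 and 10 without DEK KO replicate 1, 4 and 21 without replicate 2, 5 and 14 without WT control replicate 1, and 5 and 13 without replicate 2, since fewer libraries separate more easily. The counts by fold and with a library left out stand without the share over all open starts at the same setting. No shift is read from them.

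**Figure D3:**
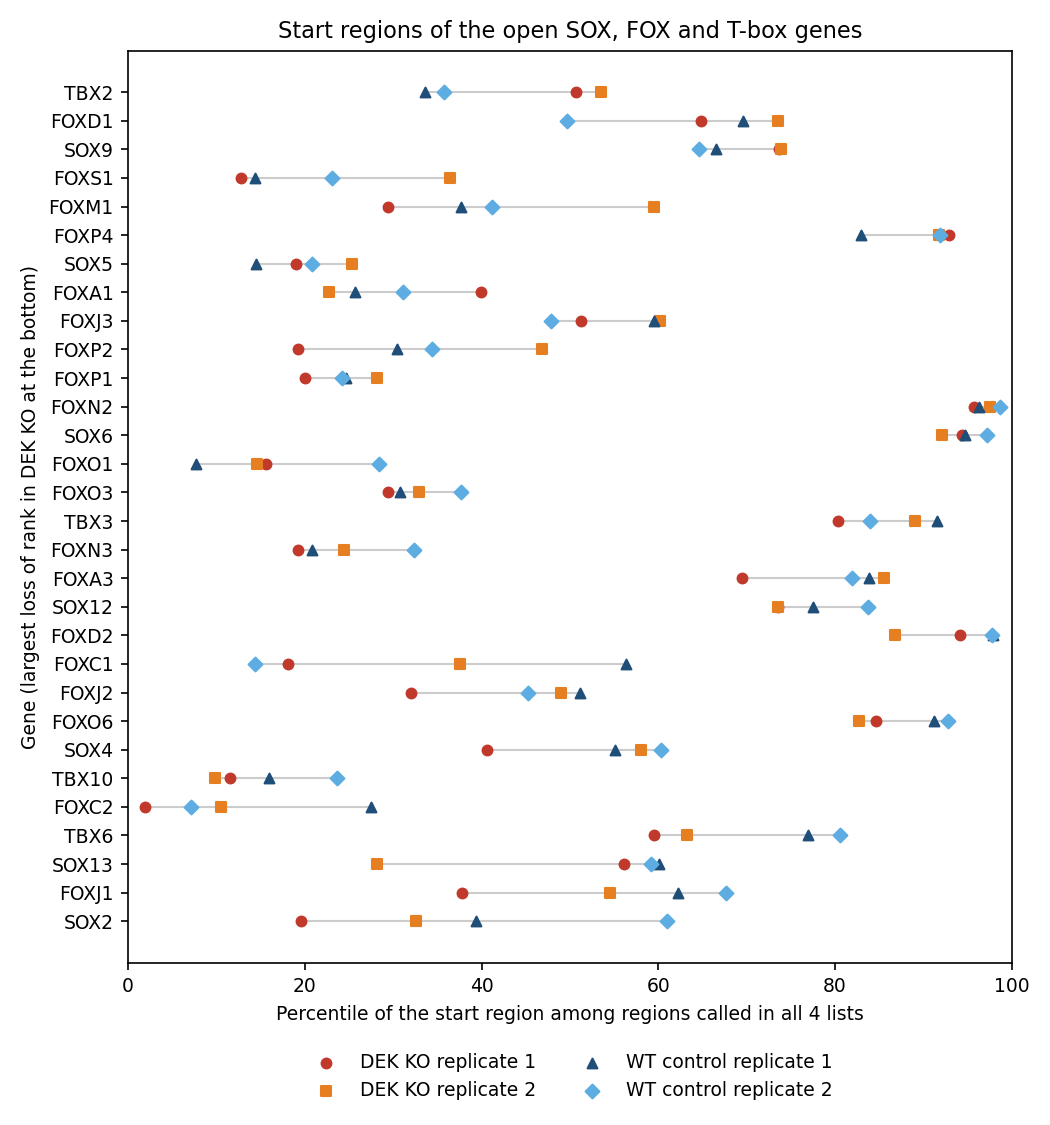
Percentile of the start region of each of the 30 open members among regions called in all 4 lists, by −log10 p, in DEK KO replicates 1 and 2 and WT control replicates 1 and 2 (points, with a grey line over their range). Genes are ordered by DEK KO minus WT control, from SOX2 (−24.1) at the bottom to TBX2 (17.4) at the top, and at 19 genes the groups overlap.

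TBX2, a repressor of CDKN1A and CDKN2A, had its start region (chr17:61399146-61400011) at percentiles 50.7 and 53.5 in DEK KO and 33.6 and 35.7 in WT control. The difference of 17.4 points exceeded the gap within either group and was 13.7 points by fold. Its strongest shared region, 42.7 kb away (chr17:61356435-61357133), was at 95.3 and 99.7 in DEK KO and 86.6 and 85.4 in WT control, a difference of 11.5 points by −log10 p and 2.17 by fold. Of the 7 shared regions in the TBX2 window, 3 ranked higher in DEK KO and 3 lower. A lower one, 7097 bp from a gene end of TBX2 (chr17:61416563-61417347), differed by −22.6 points. SOX9 had its start region (chr17:72120240-72122107) at 73.7 and 73.9 in DEK KO and 66.5 and 64.6 in WT control, a difference of 8.22 points by −log10 p and 15.8 by fold. Both genes lie on chromosome 17, where 28.9% of all shared regions ranked higher in DEK KO and 17.2% lower, against 24.3% and 25.7% over chromosomes 1 to 22.

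TBX6, a factor of presomitic mesoderm, stood out in the other direction. Its start region (chr16:30091696-30092301), which spans the start of the promoter shown above, was at percentiles 59.5 and 63.2 in DEK KO and 76.9 and 80.6 in WT control. The folds were 6.004 and 7.25 in DEK KO and 9.48 and 9.10 in WT control, and by fold the rank difference was −39.5 points, compared with −17.4 by −log10 p. This went against its chromosome 16, where 27.4% of shared regions ranked higher and 18.8% lower.

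At SOX2 the start region (chr3:181711133-181712144) was at 19.6 and 32.5 in DEK KO and 39.4 and 61.0 in WT control, a difference of −24.1 points that was −13.3 without WT control replicate 2. The folds of 5.56 and 7.65 in DEK KO and 6.94 and 7.89 in WT control overlapped between groups, and by fold so did the ranks. FOXJ1 was at 37.8 and 54.5 in DEK KO and 62.3 and 67.7 in WT control, a difference of −18.8 points that was −10.5 without DEK KO replicate 1. SOX13 was at 56.1 and 28.1 in DEK KO and 60.02 and 59.2 in WT control, and its difference of −17.5 points was −3.49 without DEK KO replicate 2 and −31.4 with that replicate alone. By fold, the groups overlapped at SOX2, FOXJ1, SOX13 and SOX6. The remaining lower starts were those of TBX10 (−9.14 points), FOXO6 (−8.35), FOXD2 (−7.34) and SOX12 (−7.09), which stayed separated when ranked by fold, and SOX6 (−2.71). Without WT control replicate 2 the differences were −5.30 at TBX10, −4.00 at SOX12 and −1.43 at SOX6, without DEK KO replicate 2 that of SOX6 was −1.56, and that of FOXD2 was −3.64 without DEK KO replicate 2 and −11.04 without replicate 1. FOXO6, FOXD2 and SOX13 lie on chromosome 1, where 36.8% of shared regions ranked lower in DEK KO and 16.6% higher.

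Several open starts with a role in this tissue or in tumours overlapped between groups. FOXM1 was at 29.4 and 59.5 in DEK KO and 37.7 and 41.2 in WT control. FOXO1 was at 15.6 and 14.6 in DEK KO and 7.66 and 28.4 in WT control. FOXD1 was at 64.8 and 73.5 in DEK KO and 69.5 and 49.6 in WT control. At these genes the libraries of 1 group differed from each other by as much as the groups did or more. The same held for SOX4 (40.6 and 58.1 in DEK KO, 55.1 and 60.3 in WT control), TBX3 (80.3 and 89.0 in DEK KO, 91.5 and 84.0 in WT control) and FOXC1 (18.1 and 37.5 in DEK KO, 56.4 and 14.3 in WT control). FOXC1 had in addition a KO-only region 658 bp from its start where the folds were 3.48 in DEK KO replicate 1 and 4.33 in replicate 2.

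Wide differences in rank lay around FOXA2, a pioneer factor of endoderm and liver on chromosome 20 (22580998 to 22585490). Its window held 6 regions. A region 5.05 kb from the gene (chr20:22574937-22575945) was at percentiles 67.9 and 57.9 in DEK KO and 17.5 and 23.8 in WT control, with folds of 9.57 and 9.80 in DEK KO and 5.74 and 5.93 in WT control. A region 31.3 kb away on the other side (chr20:22616764-22617535) was at 74.4 and 76.7 in DEK KO and 25.4 and 39.1 in WT control, with folds of 10.1 and 12.4 in DEK KO and 7.04 and 7.74 in WT control. Between this region and the gene, at 16.0 kb, lay a KO-only region (chr20:22601465-22601999) called at 7.79-fold and 8.44-fold enrichment in DEK KO replicates 1 and 2, with no peak in either control list. The region inside the gene (chr20:22583322-22584511) ranked lower by −log10 p, at 29.3 and 39.7 in DEK KO and 44.6 and 47.7 in WT control, a difference of −11.7 points that was −6.43 without DEK KO replicate 1. Its folds of 6.10 and 8.20 in DEK KO and 6.99 and 6.66 in WT control overlapped.

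The 2 flanking FOXA2 differences, 42.3 and 43.3 points, were the second and the third largest positive ones among the 351 shared regions of all members and were picked after the values were seen. By fold they were 43.5 and 35.1 points, and the larger one ranged from 36.4 to 50.1 when each library was left out in turn. On chromosome 20, 31.1% of shared regions ranked higher in DEK KO and 18.8% lower, and 76.1% of one-genotype regions were KO-only. The remaining 2 regions of the window were each called in 1 list. The hepatocyte markers ALB, APOA2 and TTR, which belong to a lineage in which FOXA2 acts, had no peak at the start in any list.

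**Figure D4:**
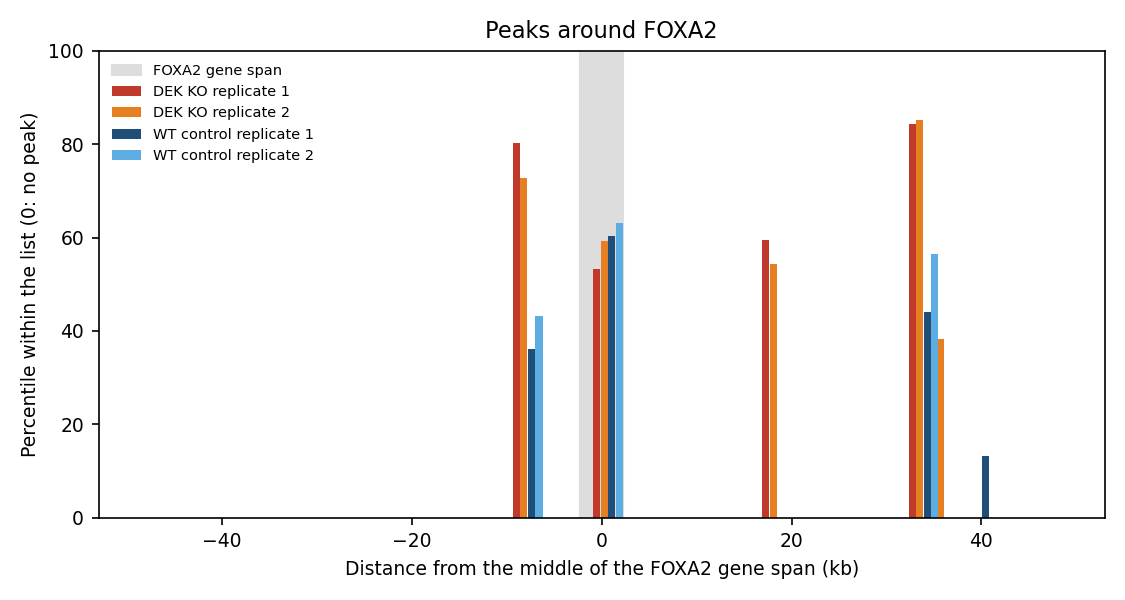
Peaks in the FOXA2 window by distance from the middle of the gene (kb) and percentile within each list by −log10 p (bars, side by side for each region, 0 where the list has no peak), for DEK KO replicates 1 and 2 and WT control replicates 1 and 2. Both DEK KO bars stand above both WT control bars at the 2 flanking regions called in all lists, only DEK KO bars stand at the region 16.0 kb from the gene, and single bars mark regions called in 1 list.

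Of the 4 shared regions of FOXA1, also a pioneer factor, 1 ranked higher in DEK KO and 2 lower. The higher one (chr14:37623555-37624254) differed by 23.1 points, and this difference stayed positive whichever library was left out. The strongest shared region of FOXA1 (chr14:37546356-37547438, 47.8 kb away) was at 47.6 and 13.6 in DEK KO and 57.2 and 54.4 in WT control. Its difference of −25.2 points was −8.19 when DEK KO replicate 2 was left out and −42.2 when replicate 1 was, and by fold the groups overlapped. FOXA3 had 5 regions, all called in every list, with 1 lower and none higher in DEK KO. The difference between FOXA2 and its paralogs was not tested.

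Over all member windows, the lists called 531 and 523 regions in DEK KO replicates 1 and 2, and 471 and 470 in WT control replicates 1 and 2. The means were 527 ± 5.66 and 470.5 ± 0.707 (SD, n = 2 each), a ratio of 1.12, against 1.10 in the windows of other genes. With every list shortened to its 87220 strongest peaks, the length of the shortest list, the ratio was 1.01. Of the 713 regions, 351 (49.2%) were called in all 4 lists, against 45.2% of all regions. KO-only regions numbered 39 (5.47%), against 6.24% of all regions, and WT-only regions 14 (1.96%), against 2.56%. The KO-only share of these 53 one-genotype regions was 73.6% (exact 95% interval 59.7 to 84.7, counting error only), near the 70.9% of all regions. At equal list lengths it was 57.7%, against 56.7% of all regions.

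These counts depended on single libraries, because leaving one out makes both presence in its group and absence from it easier to meet. KO-only regions numbered 102 without DEK KO replicate 1, 96 without DEK KO replicate 2, 65 without WT control replicate 1 and 59 without WT control replicate 2. WT-only regions numbered 29, 21, 58 and 52 in the same order. Without WT control replicate 1 or 2, the KO-only share was 52.8% or 53.2%. These counts and shares stand without those over all regions at the same setting, so nothing particular to the member windows is read from them.

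KO-only regions lay in the windows of 31 of the 73 members (41.2% of all protein-coding genes had one) and WT-only regions in those of 14 (20.1% of all genes). Both kinds occurred at 9 members, and 37 had neither. Most were weak. The lower of the 2 list percentiles had a median of 22.7 for the 39 KO-only regions, against 21.6 for all KO-only regions, and of 10.9 for the 14 WT-only regions, against 15.9. Above the 50th percentile in both lists that called them were 2 of the 39 KO-only regions, against 10.1% of all KO-only regions, and 1 of the 14 WT-only regions, against 3.85% of all WT-only ones. These were the FOXA2 region described above, a KO-only region inside FOXJ3, a factor of muscle and spermatogenesis (chr1:42209902-42211465, folds 6.15 and 6.26 in DEK KO replicates 1 and 2), and a WT-only region inside FOXP2, the repressor tied to speech (chr7:114158030-114159137, folds 10.9 and 7.51 in WT control replicates 1 and 2). The next below the 50th percentile was the FOXK2 start region at 49.2.

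T-box windows had the largest surplus of calls of the 3 families. They held 81 and 84 called regions in DEK KO and 62 and 62 in WT control, a ratio of 1.33, whereas FOX windows had 337 and 321 in DEK KO and 301 and 302 in WT control (1.09) and SOX windows 113 and 118 in DEK KO and 108 and 106 in WT control (1.08). One-genotype regions were 10 KO-only and 1 WT-only at T-box genes, 23 and 12 at FOX genes, and 6 and 1 at SOX genes. KO-only regions were thus 9.80% of T-box, 5.07% of FOX and 3.82% of SOX regions, against 6.24% of all regions. The T-box ratio was 1.17 at equal list lengths, with 72 and 73 regions in DEK KO and 62 and 62 in WT control, and 1.28 without the TBX5 window, both settings chosen after the values were seen. Both DEK KO libraries exceeded both controls in each setting (exact permutation p = 0.333 at best). The difference between families was not tested.

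TBX5, a factor of heart and forelimb, had a closed start and 3 KO-only regions. Called regions in its window were 4 and 5 in DEK KO and 1 and 1 in WT control. A KO-only one (chr12:114430347-114430650, 21.9 kb from the start) had a fold of 5.14 in DEK KO replicate 1 and 6.56 in replicate 2. A second (chr12:114315778-114316523), outside the gene, had 7.27 and 5.18, and the third (chr12:114375002-114375297), inside the gene, had 3.43 and 3.45 and lay at percentile 6.25 of the list where it ranked lower. The single shared region was at 20.5 and 8.996 in DEK KO and 18.6 and 6.51 in WT control, where the groups overlapped. TBX18, a factor of ureter mesenchyme, had a closed start and a shared region 40.1 kb away (chr6:84804706-84805927) at 50.4 and 43.6 in DEK KO and 22.8 and 33.5 in WT control. TBX1, a factor of the pharyngeal arches, had one at 45.9 and 42.6 in DEK KO and 31.3 and 17.7 in WT control, which lay nearer to GP1BB. TBX1 lies on chromosome 22, where 39.2% of all shared regions ranked higher in DEK KO, and its difference was 19.7 points, or 12.9 without WT control replicate 2. The strongest shared region of the TBX4 window, which lies nearest to TBX2 (chr17:61416563-61417347), was lower, at 32.5 and 35.1 in DEK KO and 50.1 and 62.7 in WT control.

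Of the 351 regions called in all lists in member windows, 69 ranked higher in DEK KO (19.7%, against 24.3% of all shared regions) and 84 lower (23.9%, against 25.7%). The median difference was −0.563 percentile points, against −0.450 over all shared regions. When the libraries were left out one at a time, in the order of the DEK KO and then the WT control replicates, 139, 121, 124 and 120 were higher and 136, 143, 137 and 142 lower. The shares of 19.7% and 23.9%, with no library left out, were both below those of all shared regions. The counts with a library left out are of regions called in every remaining list, not of the 351. They stand without such a share, so no shift is read from them. With percentiles among all peaks of a list, which carry the difference in list length, 105 were higher and the median difference turned to 1.37.

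The values varied with position in the window, where member starts include the gene ends that stood in for them. At member starts 3 of 41 shared regions ranked higher (7.32%, against 16.4% in other genes) and 13 lower (31.7%, against 23.1%), with a median difference of −3.08 points. Inside member genes 19 of 106 were higher (17.9%, against 24.97%) and 31 lower (29.2%, against 27.1%), with a median of −2.61. In the flanks 47 of 204 were higher (23.04%, against 27.0%) and 40 lower (19.6%, against 24.1%), with a median of 0.706. The same order held in the windows of all other protein-coding genes, with medians of −0.920 at starts, −0.595 inside genes and 0.240 in flanks. The member medians were farther from 0, and this difference was not tested.

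**Figure D5:**
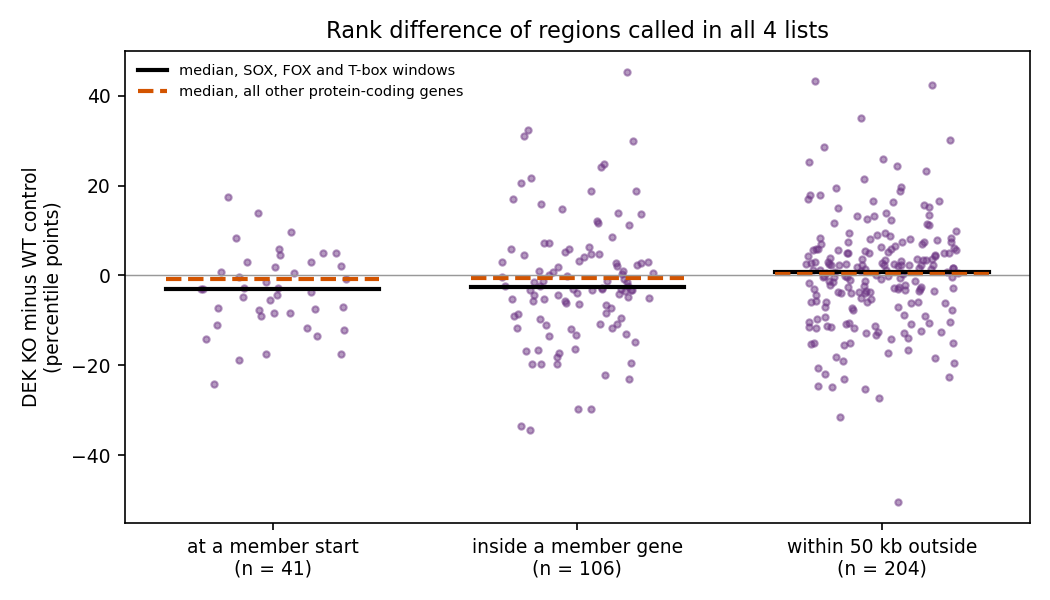
Difference in percentile, DEK KO minus WT control, of the 351 member regions called in all 4 lists (points), by position at a member start, inside a member gene or within 50 kb outside, with the member median (black) and that of all other protein-coding genes (dashed orange). Medians are −3.08, −2.61 and 0.706 in the members and −0.920, −0.595 and 0.240 in other genes.

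FOXP1, a repressor in lymphoid, heart and epithelial cells, was the member with most regions, 67 over a span of 629 kb, of which 38 were called in all lists. The region at its start of lowest coordinate (chr3:71063154-71064830) was at 20.0 and 28.2 in DEK KO and 24.7 and 24.2 in WT control. Of the 38, 9 ranked higher in DEK KO and 8 lower, where 24.3% of all shared regions ranked higher and 25.7% lower. A region 13.6 kb from the nearest listed start (chr3:71050065-71051282) was at 66.2 and 39.5 in DEK KO and 10.9 and 4.49 in WT control, and another 22.2 kb away (chr3:71087110-71088096) at 22.1 and 48.8 in DEK KO and 4.39 and 1.59 in WT control. In contrast, a region 5.12 kb from the listed start at 71543557 (chr3:71548673-71549636) was at 38.2 and 24.4 in DEK KO and 67.6 and 62.2 in WT control. The FOXP1 window thus held regions of both directions, in numbers near those shares. These 3 regions stayed separated when ranked by fold. The difference of the second, 32.4 points, was 19.1 without DEK KO replicate 2.

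Regions of both directions also lay in the windows of other long FOX genes. Over all shared regions 24.3% ranked higher and 25.7% lower, and no difference of a gene from these shares was tested. FOXN3, a checkpoint repressor, had 4 higher and 3 lower among 14 shared regions, from 30.9 points (chr14:89377924-89379033) to −29.8 points (chr14:89493639-89494619), the first being 19.9 points without WT control replicate 2. FOXO3, a mediator of stress and longevity signals, had 1 higher and 6 lower among 15. FOXP2 had 2 higher and 5 lower among 13. FOXO1 had no higher region and 1 lower, 126 kb from its start (chr13:40539866-40541054) at 35.4 and 28.9 in DEK KO and 65.1 and 62.4 in WT control, and 2 KO-only regions that were weak, with lower list percentiles of 11.9 and 2.54. FOXO6 also had 2, at 43.3 and 7.06. The largest negative difference of all, −50.4 points, lay in the FOXM1 window (chr12:2904041-2904939, 36.4 and 8.996 in DEK KO, 72.5 and 73.7 in WT control) but nearest to the start of TULP3. These regions, like those of FOXP1, were the largest differences among 351 and were chosen after their values were seen.

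FOXL1, a factor of gut and other mesenchyme, and FOXC2, a factor of lymphatic vessels and kidney podocytes, shared a strong region 945 bp from the gene end of FOXL1 (chr16:86584423-86586126). It was at 97.6 and 99.5 in DEK KO and 82.1 and 87.3 in WT control. The folds were 8.18 and 10.2 in DEK KO and 8.24 and 8.32 in WT control, and by fold the groups overlapped with a rank difference of 4.08 points, compared with 13.9 by −log10 p. FOXK1 had 12 shared regions despite its closed start, and its strongest (chr7:4724664-4725917) was lower in DEK KO by −log10 p (83.2 and 88.5 in DEK KO, 90.8 and 91.0 in WT control) and of opposite sign by fold. Its difference of −5.06 points was −2.41 when DEK KO replicate 1 was left out and −7.72 when replicate 2 was. FOXN4, a retinal factor, had its strongest shared region at 44.9 and 48.7 in DEK KO and 39.7 and 27.5 in WT control, a difference of 13.2 points that was 7.11 without WT control replicate 2. FOXI1 had a region 45.0 kb away (chr5:170150872-170151962) at 84.5 and 82.7 in DEK KO and 93.5 and 96.6 in WT control, a difference of −11.4 points by −log10 p and −4.05 by fold. FOXI2 overlapped, at 26.6 and 26.1 in DEK KO and 52.3 and 26.2 in WT control.

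Among SOX genes, SOX5 had the most KO-only regions, 3 with no WT-only one, all inside a gene of 1033 kb and at least 495 kb from its start. Their lower list percentiles were 7.06, 11.9 and 21.6. SOX6 had 1 higher and 4 lower among 10 shared regions, the lowest (chr11:16262116-16263145) at 26.9 and 4.98 in DEK KO and 36.0 and 64.6 in WT control, a difference of −34.4 points that was −20.1 without WT control replicate 2. SOX12 had its strongest shared region at the NRSN2 start, at 66.4 and 88.5 in DEK KO and 91.1 and 90.3 in WT control, and the difference of −13.2 points was −2.17 when DEK KO replicate 1 was left out and −24.3 when replicate 2 was. SOX2 had a WT-only region 29.6 kb away with a fold of 3.94 in WT control replicate 1, 3.65 in replicate 2 and a lower list percentile of 12.2. At SOX30 and SOX4 the strongest shared regions overlapped between groups. SOX17 had 4 shared regions, SOX11 none, and neither had a one-genotype region. FOXH1, the SMAD partner of nodal signals, had 9 shared regions, 1 higher and 2 lower, despite a closed start. Over all shared regions 24.3% ranked higher and 25.7% lower.

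Across the 66 members with a shared region, the strongest one ranked higher in DEK KO at 16 (24.2%, against 21.1% of all genes with one) and lower at 11 (16.7%, against 21.4%). Members are counted here, so the higher region shared by FOXC2 and FOXL1 counts for both. The same holds for the lower region shared by FOXD2 and FOXE3. The strongest region lay at a member start for only 11 members. These include FOXC2 and FOXE3, where the start or gene end was that of FOXL1 and FOXD2. The 7 members without a shared region, among them FOXB1, FOXD4, FOXI3, SOX11, SOX14 and SOX21, all had a closed start.

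Partners and targets of the 3 families were taken from lists drawn up with earlier results of these data known. Of 20 FOXO pathway genes, 19 were open and PIK3IP1 was mixed. Among the open ones 4 start regions ranked higher and 4 lower in DEK KO. The proapoptotic FOXO target BCL2L11 was higher, at 66.6 and 67.1 in DEK KO and 48.0 and 38.9 in WT control, and GADD45A was lower, at 67.4 and 75.3 in DEK KO and 82.8 and 84.3 in WT control. All 12 FOXM1 cell cycle targets were open, with 2 higher and 1 lower. Of 12 SOX partners and targets, 5 were open and 5 closed, with 1 higher, CTNNB1, and 2 lower, TUBB3 and POU2F1. Of 12 T-box partners and targets, 3 were open and 6 closed, among them CDKN2A, and CDKN1A was open at ranks that overlapped (9.40 and 30.2 in DEK KO, 20.5 and 26.1 in WT control). The other 2 open ones ranked lower, GATA6 at 64.9 and 62.0 in DEK KO and 66.7 and 66.8 in WT control, and SMAD3 at 56.4 and 63.2 in DEK KO and 63.3 and 67.9 in WT control, and none ranked higher. KO-only and WT-only regions numbered 13 and 10, 8 and 3, 9 and 4, and 6 and 5 in the 4 lists, where 70.9% of all one-genotype regions were KO-only. Open starts made up 59.8% of all protein-coding genes. Over all 11416 open starts, 15.7% of start regions ranked higher in DEK KO and 23% lower.

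Motifs were searched on both strands of the 50 promoter windows. The SOX motif ACAAAG was in 5 windows (10%, against 12.9% of all 15101 windows of the table) and ACAATG in 3 (6%, against 7.94%). The FOX motif GTAAACA was in 1 (2%, against 2.69%) and the T-box motif AGGTGTGA in 1 (2%, against 0.92%). The AP-1 motif TGANTCA was in 2 (4%, against 5.64%), the hypoxia response motif ACGTG in 9 (18%, against 23.5%) and TATAAA in 3 (6%, against 9.83%). Apart from AGGTGTGA, each motif was in a smaller share of member windows than of all windows, and a match is a description of letters and not a site.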

How the data were processed

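ATAC-seq peak lists of 2 DEK KO and 2 WT control libraries of 786-O were used. Peaks were called by the authors separately for each library, as the 4 deposited lists show. The submitters' processing notes list MACS2 2.2.7.1 among the tools, with ChIPseeker 1.32.1, Picard 2.26.9, DiffBind 3.6.5, cutadapt 1.18, deepTools 3.5.1, SAMtools 1.7 and Bowtie2 2.2.5, and give hg38 and GRCh38 as builds, but no settings. The extraction text in the labels describes RNA, and the sources used here do not give how the ATAC libraries were made or whether reads were shifted. The deposited fold column is the ratio of pileup to background at the summit, the authors' own value per peak. The authors' columns 8 and 9 hold −log10 p and −log10 q, the deposited score equals the integer part of 10 times −log10 q for at least 99.96% of peaks, and the last deposited column is the summit offset in bp. No counts or depths were given. Because −log10 p grows with depth, peaks were ranked only within a library.

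Peaks on chromosomes 1 to 22 were kept, which left out between 2508 and 2890 per list and, with them, 5 X-linked genes of these families. Peaks overlapping by at least 1 bp were merged, and regions were grouped by which lists held a peak there. Gene spans, promoter windows and starts came from RefSeq (GRCh38.p14). Any listed start of a gene counted, and the 23 members without an entry were read at either gene end. SOX17, FOXA2, FOXS1, FOXJ1, SOX18, FOXH1, FOXF1, FOXM1, TBX3, FOXE3, SOX15, SOX9, TBX2, FOXL1, TBX15, FOXN2, SOX14, SOX10, FOXC2, SOX7, SOX8 and SOX11 were among these members. Some items are not reported here. For single regions, all 6 ways to assign the libraries gave an exact permutation p. For a single region, a difference given without a library keeps the percentiles of the other 3. Counts, shares and medians without a library came from merging and ranking the other 3 lists again. Counts over members carry no test and are set beside the same count over all genes or regions.

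Named with values were mixed starts, the 8 members per direction with the largest rank difference of the strongest shared region, the 6 per direction with the largest surplus of KO-only or WT-only regions (ties by symbol), the 8 with most shared regions, one-genotype regions above the 50th percentile in both lists, and 16 members tied to kidney or tumours. Members and lists were chosen with earlier results of these data known. The scripts were checked on simulated lists and used Python 3.11.15, numpy 2.4.6, pandas 2.3.3 and scipy 1.17.1. Intervals cover counting error only.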

Additional observations from a re-analysis of the deposited data

How the results depend on the processing

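With 10 kb on each side, the ratio of called regions was 1.09, KO-only and WT-only regions numbered 20 and 9, shared regions ranked higher and lower 27 and 52 with a median difference of −2.49 points, and 4 named members had a separated strongest region, against 17 with 50 kb. With the gene span alone these values were 1.08, 12 and 7, 21 and 41, −2.90 and 3. Narrower windows hold fewer regions by construction. Named members include those picked for the largest differences of this same region, so the counts of separated ones in this section describe the picked members only. Over all protein-coding genes with a shared region, the strongest ranked higher at 21.1% and lower at 21.4%. The counts of higher and lower shared regions and open starts in this section stand without the share over all such regions. No shift is read from them. The ratio was 1.08 with a −log10 q of at least 5. With lists of equal length it was 1.01, with 22 WT-only regions and a KO-only share of 57.7%. With percentiles among all peaks of a list, which keep the difference in list length, 105 shared regions ranked higher, the median difference was 1.37, and 5 open starts ranked higher. Within 5 kb of a start, 23 members were closed. By fold, 4 open starts ranked higher and the FOXK1 difference turned to 4.61 points; the cause was not tested.

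Leaving out each library in turn gave 59 to 102 KO-only and 21 to 58 WT-only regions, a KO-only share of 52.8% to 82.1%, median differences of −0.812 to −0.195, 120 to 139 higher and 136 to 143 lower shared regions, 26 to 29 named members separated, 4 to 10 open starts higher and 10 to 21 lower, ratios of 1.11 to 1.13, 30 open members and 36 to 37 closed ones. The KO-only and WT-only values among these stand without those over all regions, so no shift is read from them.

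The labels give a replicate number but do not say whether same-numbered libraries were prepared together. Their deviations from the group means correlated by 0.0130, which with 2 libraries per group cannot settle this. With the replicate number as a block, 100 shared regions were higher and 113 lower in both pairs, 24 named members were separated, and 3 open starts were higher and 13 lower. With the block the smallest exact permutation p is 0.5.

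Of the values for single members, 323 moved by less than the spread within groups, 38 by more without a change of a called sign, and 1 changed sign. The 323 include the values with the replicate number as a block. Those repeat the main value and could not move, so the 323 overstate stability. The settings for starts by outermost start or promoter table, for open start regions and for T-box windows were chosen after seeing the data. Unknown depth limits the comparison of peak strength to ranks.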
